A study of Mus musculus with 6 samples.

Results

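Prm1, Prm2, Prm3, Tnp1, Tnp2 and Hils1 are 6 of the 48709 genes in a count table of fetal mouse ovaries. They were chosen by name, as the protamine and transition protein genes with Hils1. A further reason was that their counts in the unexposed libraries stood above those in the drug-exposed libraries. They are called sperm chromatin genes below, although Prm3 encodes a small acidic protein. Their difference between the groups is therefore given here as a description, without a test. All 6 were among the 20167 genes with enough counts to be tested between the groups.

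The study asked how acetaminophen (APAP) and ibuprofen (IBU), common painkillers that reach the fetus, alter the early ovary. Wild type CD1 pregnant mice received APAP at 30 mg/kg/day and IBU at 15 mg/kg/day by gavage, 4 times a day at intervals of 3 h, from 10.5 to 13.5 days post coitum (dpc), and controls received the ethanol diluent. Ovaries were taken at 13.5 dpc, and RNA from 3 control and 3 APAP+IBU pools was sequenced, each pool holding embryonic gonads from a pair of pregnant females, so that no value belongs to a single fetus. The titles of the exposed libraries name only IBU, whereas their exposure label names both drugs, and the group was taken from that label.

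In the testis, haploid round spermatids remove most of their histones as the nucleus condenses. Transition proteins (Tnp1, Tnp2) take the place of the histones first, and protamines (Prm1, Prm2), short arginine-rich proteins, then replace the transition proteins and compact the DNA of the sperm head. Hils1 encodes a linker histone-like protein of spermatids, and Prm3 a small acidic protein from the same gene cluster. An ovary at 13.5 dpc contains germ cells that are entering meiosis, supporting cells and stroma, and spermatids are not among the cells of a fetal gonad of either sex.

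The 6 libraries held between 37811968 and 48954631 counts. By edgeR, 0 of 20167 genes differed between the groups at an adjusted p under 0.05, and 1254 did so at an unadjusted p under 0.05 (648 lower and 606 higher in APAP+IBU, or 3.21% and 3% of the genes tested). DESeq2 called 192 genes at an adjusted p under 0.05, with 0.858% of the genes lower and 0.0942% higher. The paper, also with DESeq2, reported far more genes in each direction at its own limits of p and fold change. The reason for this gap was not tested. All 12 genes that mark the fetal ovary were detected in every library, from Dazl, an RNA-binding protein of germ cells, at 368 to 592 counts-per-million (CPM), to Foxl2, a transcription factor of ovarian supporting cells, at 0.944 to 8.16 CPM. None of the 12 passed an unadjusted p of 0.05 by edgeR or an adjusted p of 0.05 by DESeq2. The paper, with its own analysis, reported Stra8 as lower and Dazl as higher from its sequencing. By quantitative PCR it reported changes of Pou5f1, Wnt4 and Foxl2, and none of Ddx4 and Rspo1. Libraries also differed in neighbouring tissue and in Y-linked RNA. The summed level of 16 fetal liver genes ran from 199 to 577 CPM in replicates 1 and 2 of both groups and reached 2069 CPM in control 3 and 3368 CPM in APAP+IBU 3. The 4 broadly expressed Y-linked genes summed to 9.37 CPM in control 2 and to between 2.26 and 2.86 CPM in the other libraries.

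In the mouse genome (GRCm38, gene models of GENCODE M21), Tnp2, Prm3, Prm2 and Prm1 lie next to each other on the minus strand of chromosome 16 within 17.904 kb. Tnp2 (ENSMUSG00000043050) spans positions 10787936 to 10788660, Prm3 (ENSMUSG00000050058) 10790505 to 10790914, Prm2 (ENSMUSG00000038015) 10791380 to 10796134 and Prm1 (ENSMUSG00000022501) 10796326 to 10805839. Tnp1 (ENSMUSG00000026182) stands alone on chromosome 1, from 73015074 to 73015909 on the minus strand. Hils1 (ENSMUSG00000038994) lies on chromosome 11, from 94967593 to 94968456 on the plus strand, inside the gene Sgca, which runs in the opposite direction. Their exons are short, from 410 nucleotides for Prm3 to 894 nucleotides for Prm2.

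The 6 genes sit at 3 loci and their levels moved together across libraries, so the 120 bases upstream of each RefSeq transcription start (GRCm38.p6) follow, 5′ to 3′ in the direction of the gene. Spermatid genes are known to use the activator CREM, which binds cAMP-response elements such as TGACGTCA, and many of them have a TATA box. Capitals mark matches on either strand to TGANGTCA, which is that element with its middle base left free, or to TATANA, and where such matches overlap the capitals are joined.
Prm1, chr16:10796824-10796943, minus strand: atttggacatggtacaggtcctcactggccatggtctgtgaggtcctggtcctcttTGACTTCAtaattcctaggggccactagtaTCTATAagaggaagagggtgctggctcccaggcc
Prm2, chr16:10792106-10792225, minus strand: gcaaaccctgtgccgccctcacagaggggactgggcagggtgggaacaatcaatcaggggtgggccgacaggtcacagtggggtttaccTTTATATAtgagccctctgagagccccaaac
Prm3, chr16:10790915-10791034, minus strand: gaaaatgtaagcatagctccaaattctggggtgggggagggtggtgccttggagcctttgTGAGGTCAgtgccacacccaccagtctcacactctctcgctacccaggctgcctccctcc
Tnp1, chr1:73015900-73016019, minus strand: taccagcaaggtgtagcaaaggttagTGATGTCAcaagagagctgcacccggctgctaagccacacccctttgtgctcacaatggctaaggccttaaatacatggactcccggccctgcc
Tnp2, chr16:10788656-10788775, minus strand: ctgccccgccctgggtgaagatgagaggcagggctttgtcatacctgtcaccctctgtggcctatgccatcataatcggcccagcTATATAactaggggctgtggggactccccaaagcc
Hils1, chr11:94967473-94967592, plus strand: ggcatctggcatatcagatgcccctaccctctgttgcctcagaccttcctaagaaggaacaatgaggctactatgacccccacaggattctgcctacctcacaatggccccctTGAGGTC
The complete element TGACGTCA occurred in 0 of the 6 promoters, counted over the 300 bases from 250 before to 50 after the start, and in 1.80% of 32544 mouse promoters of the same length. TGANGTCA occurred in 4 of the 6 (8.62% of all promoters): it began 64 bases before the start in Prm1, on the opposite strand, 60 in Prm3 and 94 in Tnp1, and in Hils1 it began 7 bases before the start and ended on the first base of the gene, so that 1 base falls outside the stretch shown. TATANA occurred in Prm1, Prm2 and Tnp2 (24.4% of all promoters), where the outermost matches began between 31 and 35 bases before the start. The motifs were picked with these sequences in view, and a match describes letters and not a bound site. The GENCODE models of Prm1 and Prm2 reach far upstream of the RefSeq starts used here.

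Prm1 RNA, for the protamine found throughout mammals, was present in each library. Its counts were 1367, 286 and 248 in controls 1, 2 and 3 and 40, 9 and 10 in APAP+IBU 1, 2 and 3, which correspond to 35.9, 7.66 and 5.71 CPM and to 0.789, 0.197 and 0.260 CPM after scaling with the trimmed mean of M values. Control 1 stood above the other controls, and every exposed library lay below every control. The control mean was 16.4 ± 16.9 CPM and the exposed mean 0.415 ± 0.325 CPM (SD, n = 3 each), a ratio of 39.5, and the mean log2 CPM was lower by 4.98 with a standard error (SE) of 1.003. In bulk RNA fewer cells of a type and less RNA per cell cannot be told apart.

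Prm2 encodes the second protamine, which is made as a longer precursor and trimmed in the condensing nucleus. Its counts were 1173, 305 and 362 in the controls and 75, 21 and 26 in the exposed libraries. In CPM these were 30.8, 8.17 and 8.34 against 1.48, 0.459 and 0.677. As for Prm1, control 1 was high, controls 2 and 3 lay close together, and the groups did not overlap. The means were 15.8 ± 13.0 CPM and 0.871 ± 0.537 CPM (SD, n = 3 each), a ratio of 18.1, with a log2 difference of -4.01 (SE 0.80).

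Prm3 lies between Prm2 and Tnp2 and was much the scarcest of the cluster. It gave 60, 17 and 19 counts in the controls and 1, 1 and 0 in APAP+IBU 1, 2 and 3. The control levels of 1.57, 0.455 and 0.438 CPM therefore stood against 2 exposed counts in all, and the 0 in APAP+IBU 3 allows a level of up to 0.0781 CPM (3 counts). The ratio of pooled count rates, control over exposed, was 54.5 with an exact 95% interval from 14.7 to 456 that covers counting error only. Its log2 difference of -4.30 (SE 0.66) depended on the count of 1 added before taking logs and became -5.41 when 0.25 was added.

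Tnp1 encodes the smaller transition protein. It gave 820, 357 and 327 counts in the controls (21.5, 9.56 and 7.53 CPM) and 64, 7 and 9 in APAP+IBU (1.26, 0.153 and 0.234 CPM). The replicate 1 library was the highest of its group on both sides, by 2.52 times the mean of the other controls and 6.52 times the mean of the other exposed libraries. Means were 12.9 ± 7.55 CPM and 0.550 ± 0.618 CPM (SD, n = 3 each), a ratio of 23.4, and the log2 difference was -4.90 (SE 0.99), or -5.76 without APAP+IBU 1.

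Tnp2, the zinc-binding transition protein gene at the end of the protamine cluster, gave 761, 199 and 209 counts in the controls and 49, 16 and 19 in the exposed libraries. The levels were 19.96, 5.33 and 4.81 CPM against 0.966, 0.349 and 0.495 CPM, again without overlap. Control 1 exceeded the mean of the other controls 3.94 times. Means were 10.03 ± 8.60 CPM and 0.603 ± 0.322 CPM (SD, n = 3 each), a ratio of 16.6, and the log2 difference was -3.80 (SE 0.78).

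Hils1, the spermatid linker histone gene, was rare and the most even of the 6. Its counts of 56, 29 and 38 in the controls and 6, 8 and 4 in APAP+IBU corresponded to 1.47, 0.776 and 0.875 CPM and to 0.118, 0.175 and 0.104 CPM. Here APAP+IBU 1 was not the highest exposed library. Means were 1.04 ± 0.374 CPM and 0.132 ± 0.0373 CPM (SD, n = 3 each), a ratio of 7.86, which was the smallest of the 6, and the log2 difference was -2.74 (SE 0.34).

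**Figure D1:**
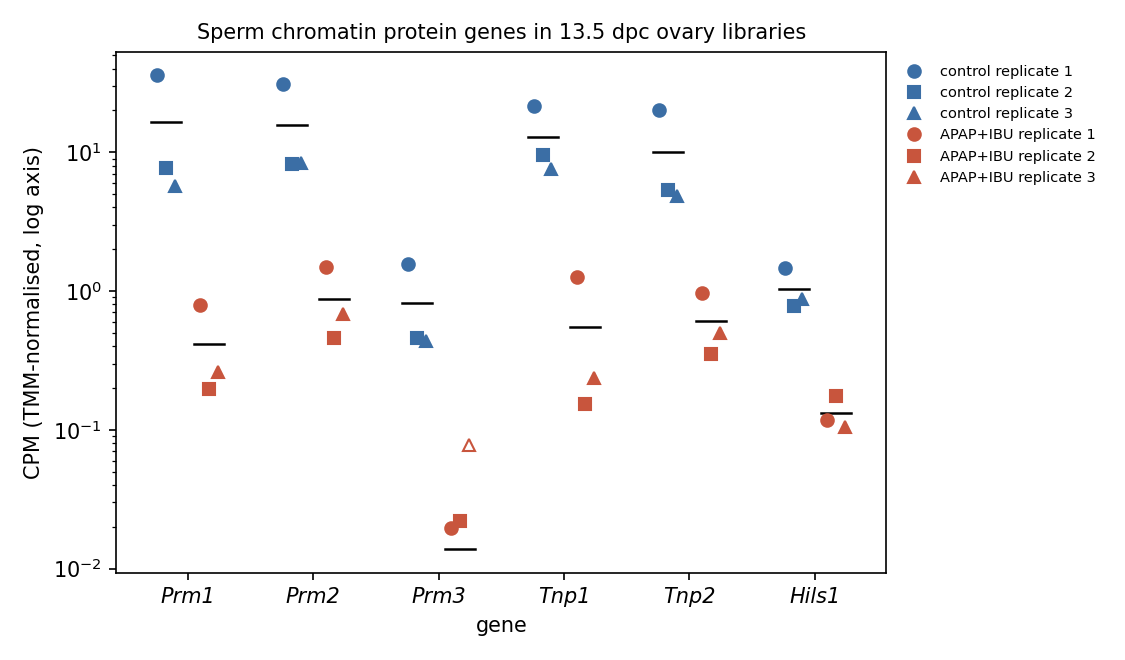
Level of each gene in every library, in TMM-normalised CPM on a log axis. Blue marks are control and red marks APAP+IBU libraries, the marker shape gives the replicate, black bars are group means, and the open triangle for Prm3 is the upper limit of 0.0781 CPM that a count of 0 allows. Every red mark lies below every blue mark of the same gene, and control 1 is the highest library for all 6 genes.

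In all 6 genes every exposed library was below every control. Across all genes tested this was so for 5.92% of 20167, and the opposite order for 4.78%. The genes were chosen for this contrast, so that nothing is read from the comparison of these shares. Summed over the 6 genes, the counts were 4237, 1193 and 1203 in the controls (111, 31.9 and 27.7 CPM) and 235, 62 and 68 in APAP+IBU (4.63, 1.35 and 1.77 CPM). The lowest control was 5.98 times the highest exposed library, and the mean control level was 22.0 times the mean exposed level.

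Control 1 set much of the control mean, since it held 63.9% of all control counts of the 6 genes. It exceeded the mean of controls 2 and 3 by 5.36 times for Prm1, 3.73 times for Prm2, 3.53 times for Prm3, 3.94 times for Tnp2, 2.52 times for Tnp1 and 1.78 times for Hils1. Among the exposed libraries APAP+IBU 1 held 2.97 times the mean summed level of the others. Without control 1 the log2 difference of the summed level was -3.74 in place of -4.37, that of Prm1 -4.16, that of Prm2 -3.38, that of Prm3 -3.71 and that of Tnp2 -3.14. With both replicate 1 libraries left out, controls 2 and 3 were still 19.1 times above APAP+IBU 2 and 3 for the sum of the 6 genes. Among the controls, liver RNA was highest in control 3 and Y-linked RNA in control 2. Their relation to the level of the 6 genes in control 1 was not tested.

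The proportions among the 6 genes were not fixed. Prm2 made up 46.2%, 51.6% and 59.3% of the Prm1 and Prm2 counts in controls 1, 2 and 3, and 65.2%, 70.0% and 72.2% in APAP+IBU 1, 2 and 3. The share was thus higher in each exposed library, yet the 95% Wilson interval of control 3 (55.4% to 63.2%) overlapped those of the exposed libraries, which began at 56.1%, 52.1% and 56.0%. Controls 1 and 3 differed beyond their counting intervals, so that the share also varied within the group.

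Tnp1 made up 51.9%, 64.2% and 61.0% of the Tnp1 and Tnp2 counts in the controls and 56.6%, 30.4% and 32.1% in the exposed libraries. The low shares in APAP+IBU 2 and 3 rest on 23 and 28 counts, with intervals of 15.6% to 50.9% and 17.9% to 50.7%. Those intervals lie below the interval of 56.8% to 65.0% in control 3 but overlap that of control 1 (49.4% to 54.3%), and APAP+IBU 1, with 47.4% to 65.4%, overlaps all 3 controls. The transition proteins together held 38.4%, 48.5% and 46.8% of the counts of Tnp1, Tnp2, Prm1 and Prm2 in the controls and 49.6%, 43.4% and 43.8% in APAP+IBU, so that these shares overlapped between the groups. These intervals cover counting error only, since reads of amplified libraries are not independent molecules.

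**Figure D2:**
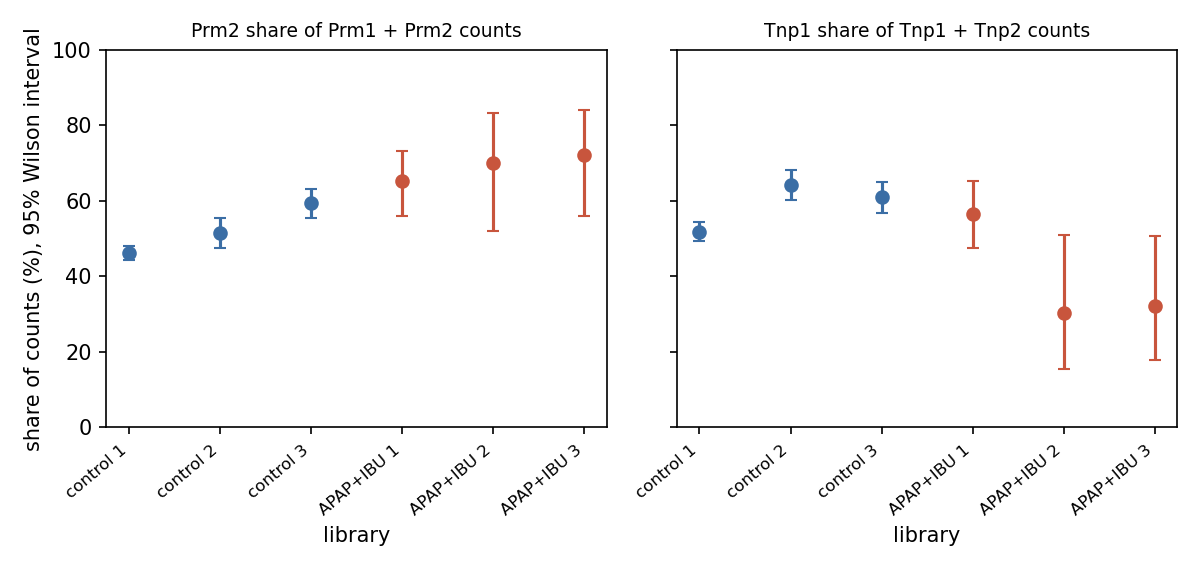
Share of counts within each pair of related genes, by library, in percent. Points are the shares (control in blue, APAP+IBU in red) and bars are 95% Wilson intervals. The Prm2 share runs from 46.2% in control 1 to 72.2% in APAP+IBU 3, and the Tnp1 share is lowest in APAP+IBU 2 and 3, where the bars are widest.

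Per kilobase of exon, the order of the 6 genes also differed between libraries. The lengths were those of the GENCODE models, which for Prm1 and Prm2 include exons upstream of the RefSeq start, and other lengths were not tried. In control 1 the level was 62.8 CPM per kb for Prm1, 49.2 for Tnp1, 36.0 for Tnp2, 34.4 for Prm2, 3.84 for Prm3 and 1.70 for Hils1. Tnp1 led in controls 2 and 3, at 21.9 and 17.2 CPM per kb against 13.4 and 10.004 for Prm1. In APAP+IBU 1 Tnp1 also led, at 2.89 CPM per kb, while Tnp2 led in APAP+IBU 2 (0.631 CPM per kb) and APAP+IBU 3 (0.893 CPM per kb). Prm3 and Hils1 were the lowest in every library. The order among Prm1, Prm2, Tnp1 and Tnp2 therefore did not hold across replicates.

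The coding genes beside these loci had log2 differences between -0.78 and -0.06, as fitted by edgeR for this and all following genes. An antisense gene over Tnp1 followed Tnp1. By edgeR 0 of 20167 genes passed an adjusted p of 0.05, so the adjusted p-values below cannot set the neighbours apart from other genes. On chromosome 16, Socs1, a feedback inhibitor of cytokine signals 2400 bases from Tnp2, was at 2.58 ± 1.28 CPM in controls and 1.84 ± 0.443 CPM in APAP+IBU, and its adjusted p by edgeR was 0.725. Gm11172, the nearest annotated coding gene on the other side, had 0 counts in every library. Beyond it Rmi2, a subunit of a DNA repair complex that was picked after its values were seen, differed by -0.24 on the log2 scale (edgeR adjusted p = 0.702). The pseudogene Gm10343, inside the long Prm1 gene model, had 2, 8 and 6 counts in controls and 8, 10 and 5 in APAP+IBU, an order unlike that of Prm1.

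Tnp1 lies between Igfbp5, a binding protein of insulin-like growth factors, and Tns1, a focal adhesion protein. They differed by -0.12 and -0.06 on the log2 scale, with edgeR adjusted p-values of 0.802 and 0.883. The antisense gene 1700027A15Rik, whose span from 72984844 to 73025507 on the plus strand covers Tnp1, gave 191, 29 and 62 counts in controls and 11, 3 and 3 in the exposed libraries. It showed the pattern of Tnp1, with control 1 highest and no overlap, at a log2 difference of -4.25 (edgeR adjusted p = 0.171 and DESeq2 adjusted p = 1.99e-05). The library kit keeps the strand, but the strand setting of the counting is not given in the sources used here, so that reads of Tnp1 and of this gene could not be told apart.

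Hils1 lies inside Sgca, a sarcoglycan gene of striated muscle. Sgca gave 26, 18 and 6 counts in controls and 8, 13 and 17 in APAP+IBU, and these ranges overlapped (edgeR adjusted p = 0.772). On either side, Ppp1r9b differed by -0.26 on the log2 scale (edgeR adjusted p = 0.708) and Col1a1, the collagen chain of fibroblasts and bone, by -0.78 (edgeR adjusted p = 0.692, unadjusted p = 0.0312). None of the 7 coding neighbours with counts had a log2 difference past -1, and the smallest log2 difference among the 6 sperm chromatin genes was -2.74.

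**Figure D3:**
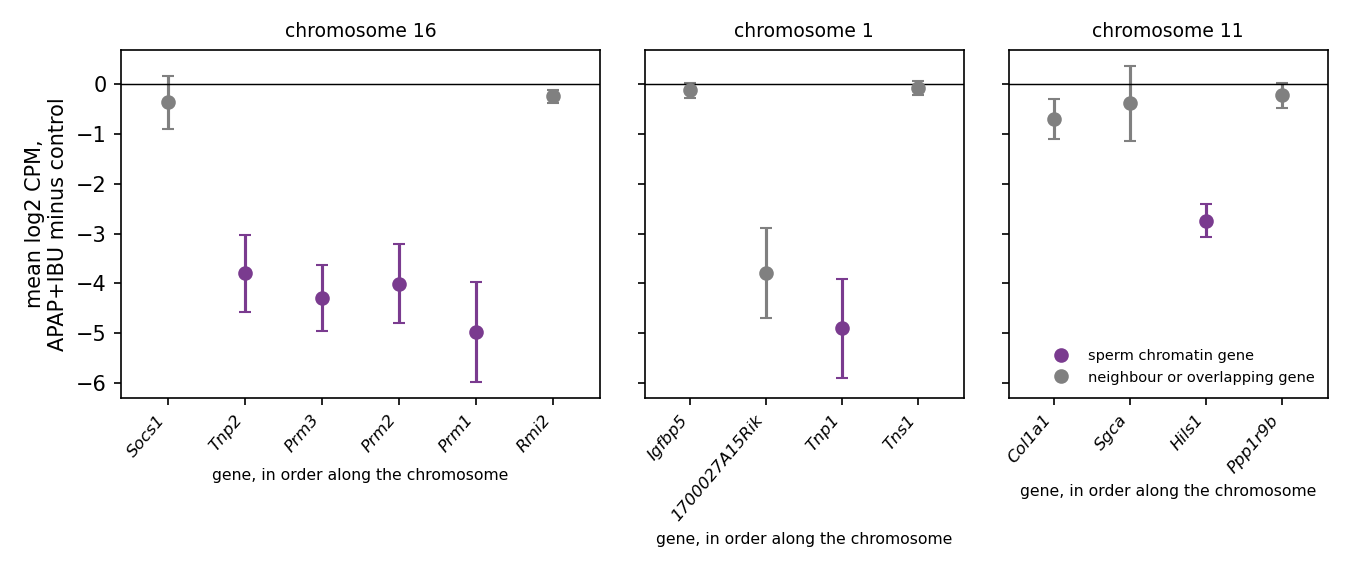
Difference in mean log2 CPM, APAP+IBU minus control, for genes in their order along 3 chromosomes, computed from the group means and not fitted by edgeR. Purple points are the 6 sperm chromatin genes, grey points their neighbours and overlapping genes, bars are standard errors over 3 libraries per group, and the line marks 0. The purple points lie between -4.98 and -2.74, and among the grey points only 1700027A15Rik, which covers Tnp1, lies in that range.

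Other chromatin proteins of the spermatid nucleus gave few reads. Of 16 such genes that were counted, 4 passed the filter on low counts, and 5 had 0 counts in all libraries. All 4 were lower in APAP+IBU at an unadjusted p under 0.05 by edgeR, a level that 3.21% of all tested genes reached in that direction. They passed the filter only through their control libraries, and 0 were left to be called when 10 counts were required in every library, so that the count gives no support of its own. H1fnt, a testis linker histone, was at 2.89, 0.830 and 0.507 CPM in controls and 0.138, 0.0437 and 0.156 CPM in APAP+IBU (edgeR adjusted p = 0.238). Hmgb4, a testis protein with HMG boxes, was at 2.18, 0.937 and 0.737 CPM against 0.0986, 0.0437 and 0.0260 CPM (edgeR adjusted p = 0.0906). The third named by level, 1700024P04Rik, had 103, 18 and 26 counts in controls and 1, 0 and 0 in the exposed libraries. Control 1 was the highest library for each of these genes, as for the protamines.

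The machinery that acts on histones, protamine genes or their RNA held few genes that were lower, and much of it is also used by oocytes. None of 16 genes for histone removal and remodelling differed by edgeR at an unadjusted p under 0.05, and their median log2 difference was -0.05 against -0.005 over all genes. Psme4, a proteasome activator, was at 177 ± 49.9 CPM in controls and 202 ± 15.8 CPM in APAP+IBU, Top2b, a topoisomerase, at 248 ± 53.6 and 294 ± 51.0 CPM, and Mdc1, a DNA damage adaptor, at 205 ± 47.1 and 290 ± 78.6 CPM (SD, n = 3 each). Of 11 transcription regulators of spermatid genes, Fhl5, a coactivator of CREM, was lower at 1.68, 0.803 and 0.829 CPM in controls against 0.0394, 0.0655 and 0 CPM in APAP+IBU. It passed the filter only through the controls, and 0 genes of that list were lower when 10 counts were required in every library. The other 10 did not pass that level, among them Brwd1, Taf7l and Tbpl1, which had the highest levels of that list. Tbpl1, a relative of the TATA-binding protein, was at 59.6 ± 3.85 CPM and 51.7 ± 3.64 CPM. Of 15 factors that store or translate protamine RNA, Tdrd6, a chromatoid body protein, was lower (log2 difference -1.92, edgeR adjusted p = 0.326), and Ddx4, Celf1 and Paip2, the highest of that list, did not pass. Without control 3 the counts of lower genes in the remodelling and storage lists became 3 and 4. Over all genes that step raised the count at an unadjusted p under 0.05 from 1254 to 6294, both directions together. With all libraries 3.21% of all tested genes were lower at that level. Fhl5 and Tdrd6 are named because they passed, after their values were seen.

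Genes for the sperm tail, the acrosome and late spermatids were the widest group that was lower with the sperm chromatin genes. Of 27 tested genes 18 were lower and 1, Zpbp, was higher in APAP+IBU at an unadjusted p under 0.05 by edgeR. Of all tested genes 3.21% were lower and 3% higher at that level. The median log2 difference of the 27 was -1.42. DESeq2 called 11 of the 27 at an adjusted p under 0.05, against 0.858% of all genes lower and 0.0942% higher. The 18 became 7 when 10 counts were required in every library, since rare genes that pass through the controls alone then drop out. Smcp, a mitochondrial capsule protein of sperm, was at 6.87, 2.76 and 2.42 CPM in controls and 0.118, 0.131 and 0.182 CPM in APAP+IBU. Oaz3, an antizyme of haploid germ cells, was at 9.47, 3.59 and 3.85 CPM against 0.651, 1.07 and 0.703 CPM. Smcp and Oaz3 were chosen after their values were seen, and Smcp, with 6, 6 and 7 exposed counts, passed the filter only through the controls. The 3 most abundant genes of that list are also used outside sperm: Odf2 was at 127 ± 9.20 and 124 ± 10.8 CPM, Hook1 at 68.3 ± 18.4 and 88.4 ± 7.32 CPM, and Slc2a3, a glucose transporter, was lower at 63.4 ± 12.9 and 43.0 ± 7.09 CPM (edgeR adjusted p = 0.692).

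Earlier male germ cell stages gave a mixed picture. Of 12 pachytene spermatocyte genes 5 were lower (Ldhc, Pgk2, Crisp2, Clgn and Cypt4), 0 were higher, and the median log2 difference was -0.53. Over all tested genes 3.21% were lower and 3% higher at an unadjusted p under 0.05 by edgeR. Pgk2, with 8, 4 and 4 exposed counts, and Cypt4, with 2, 1 and 0, passed the filter only through the controls. The count of lower genes became 3 when 10 counts were required in every library. Crisp2, with 19, 6 and 14 exposed counts, also drops out at that limit, so that the 3 are not all among the 5. The highest 3 of that list, Tex101, Cox6b2 and Majin, did not pass, and Tex101 was at 131 ± 39.8 and 154 ± 49.5 CPM in these ovaries, where oocytes are also in meiotic prophase. Of 11 spermatogonial genes, which fetal germ cells of both sexes largely share, only Lin28a, a regulator of let-7 microRNAs, was lower (140 ± 21.1 and 107 ± 17.3 CPM, edgeR unadjusted p = 0.0495 and adjusted p = 0.692). Without control 3 this count became 3, and without control 1, APAP+IBU 1 or APAP+IBU 2 it was 0. The count over all genes, both directions together, moved likewise from 1254 to 6294 without control 3. It was 674, 642 and 580 without control 1, APAP+IBU 1 and APAP+IBU 2. Kit was at 105 ± 30.1 and 101 ± 19.8 CPM and Sohlh2 at 106 ± 17.2 and 93.8 ± 3.15 CPM.

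Somatic testis genes were present at levels that partly belong to the ovary as well. Among 16 adult Sertoli cell genes 3 were lower (Rhox5, Defb19 and Defb36) and 0 higher, while Wt1 and Gata4, which ovarian supporting cells also express, were at 277 ± 4.35 and 283 ± 27.9 CPM and at 217 ± 20.9 and 228 ± 23.2 CPM. Rhox5 was at 127, 112 and 94.1 CPM in controls and 70.5, 73.9 and 86.5 CPM in APAP+IBU. Of 10 adult Leydig cell genes 1 was lower (Cyp17a1) and 1 higher (Prlr), and of 8 fetal testis genes 3 were lower (Dhh, Cyp26b1 and Ptgds). Cyp26b1, the enzyme that clears retinoic acid, was at 15.9 ± 4.04 and 9.36 ± 1.84 CPM. Beside these 3 lists, 3.21% of all tested genes were lower and 3% higher at an unadjusted p under 0.05 by edgeR. The summed level of the fetal testis genes was 108, 97.8 and 55.6 CPM in controls and 63.3 to 70.4 CPM in APAP+IBU, so that control 3, which was close to control 2 for the sperm chromatin genes, lay below the exposed libraries here. Leaving out control 3 raised the counts of lower Sertoli, Leydig and fetal testis genes to 9, 4 and 6. Over all genes that step raised the count at an unadjusted p under 0.05 from 1254 to 6294, both directions together. Leaving out control 2 lowered the list counts to 1, 0 and 1 and the count over all genes to 701. Without APAP+IBU 2 the Sertoli count was 1, and without control 1 the fetal testis count was 1, so that these counts depended on single libraries.

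Of the 4 broadly expressed Y-linked genes 0 differed at an unadjusted p under 0.05 by edgeR and 0 at an adjusted p under 0.05 by DESeq2. Control 2 was their highest library, and control 1, the highest for every sperm chromatin gene, was at 2.68 CPM against 2.64 to 2.86 CPM in the exposed libraries. Of the 9 spermatid genes of the sex chromosomes 4 had 0 counts in every library, and Slxl1 (6, 2 and 2 counts) and Sly (2, 2 and 0 counts) had counts in controls but 0 in each exposed library, too few to be tested. The 3 tested genes, Xlr3a, 1700013H16Rik and Spin2c, were between 5.58 and 70.1 CPM in these ovaries, and 0 of them passed an unadjusted p of 0.05 by edgeR or an adjusted p of 0.05 by DESeq2, whereas 1 gene of the list was lower when every gene with at least 1 count was kept. Which cells or material gave the sperm chromatin RNA was not tested.

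Over the 11 testis lists together 37 of 132 tested genes were lower and 2 higher at an unadjusted p under 0.05 by edgeR. Of all tested genes 3.21% were lower and 3% higher at that level. Requiring 10 counts in every library, which drops rare genes that passed the filter through the controls alone, lowered the first count to 19. Leaving out control 3, the control rich in liver RNA, raised the first count to 56. Over all genes that step raised the count from 1254 to 6294, both directions together. Liver and erythroid genes were highest in other libraries than control 1. Of the 16 liver genes 0 differed at an unadjusted p under 0.05 by edgeR and 0 at an adjusted p under 0.05 by DESeq2, and of the 10 erythroid genes 3 were lower by edgeR (Hba-a1, Hba-a2 and Hbb-bh1) and 1 by DESeq2 at an adjusted p under 0.05 (Hba-a1, adjusted p = 0.0412). The median log2 difference of the erythroid genes was -1.01 and 8 of 10 were negative, with summed levels of 7058, 17240 and 10960 CPM in controls and 3190, 5437 and 10194 CPM in APAP+IBU. Their part in the difference of the sperm chromatin genes was not tested.

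**Figure D4:**
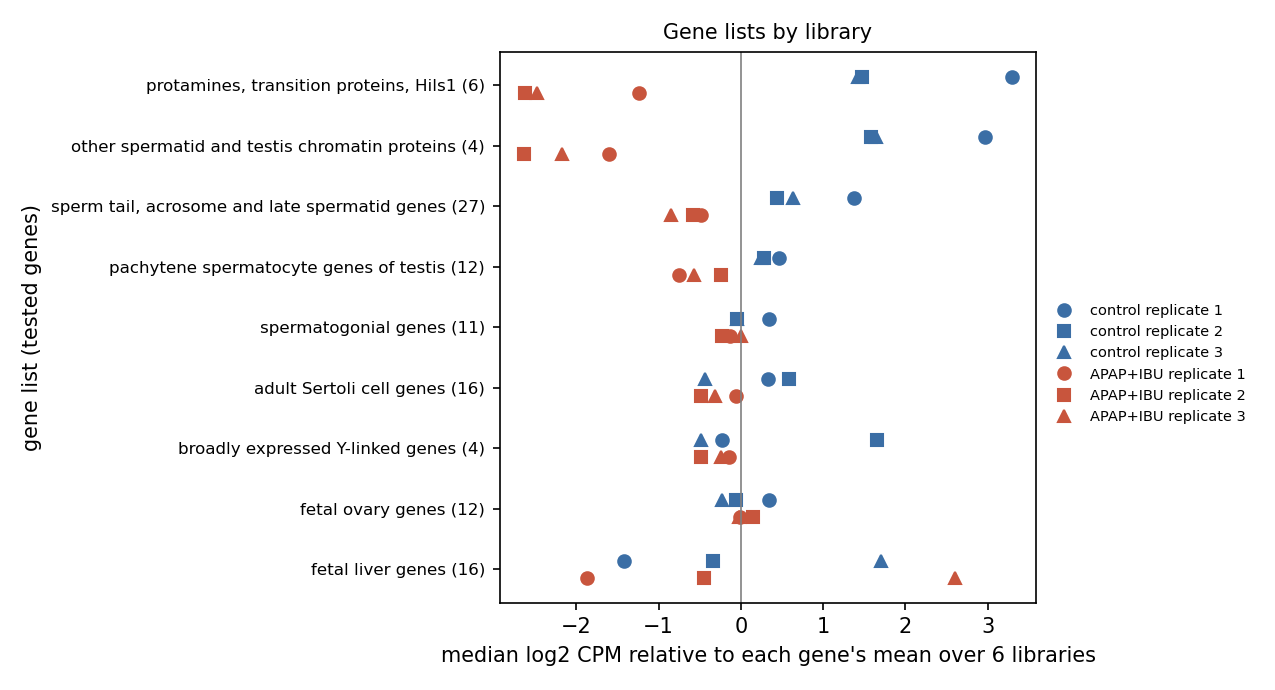
Median log2 CPM of each gene list in each library, relative to every gene's own mean over the 6 libraries. Blue marks are control and red marks APAP+IBU, marker shapes give the replicate, and the number of tested genes stands in parentheses. The sperm chromatin genes range from 3.30 in control 1 to -2.63 in APAP+IBU 2, and the Y-linked and liver lists are led by other libraries.

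Among 17966 further tested genes with a mean of at least 0.5 CPM, the 10 whose log2 CPM followed the mean profile of the 6 genes most closely over the 6 libraries had Pearson coefficients between 0.995 and 0.998, and 106 genes reached 0.95. The libraries fall into separate groups for this profile, so that the coefficients mostly restate the gap between the groups and are given without a p. Of these 10, 8 belong to male germ cells by what is known of them or by name: Meig1, Hmgb4, Spata4, Adam3, Cetn1, Spata19, Pgk2 and March11. The profile is the contrast for which the 6 genes were chosen. Some of the 8, such as Hmgb4 with 5, 2 and 1 exposed counts, passed the filter only through the controls. The share of male germ cell genes among the 17966 was not counted, so that nothing is read from this number. Meig1, which spermatids need to build the sperm tail, was at 10.8, 2.92 and 2.58 CPM in controls and 0.296, 0.153 and 0.182 CPM in APAP+IBU. Adam3, a sperm surface protein, was at 3.44, 1.53 and 1.497 CPM against 0.217, 0.153 and 0.156 CPM. The closest of all, Paip2, a repressor of poly(A)-binding protein, lay higher in every control than in every exposed library at a far smaller distance, from 201, 195 and 193 CPM in controls to 182, 179 and 179 CPM in APAP+IBU, because a correlation takes no account of the size of a difference. The remaining gene, 1700024P04Rik, is the chromatin list member described above.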

How the data were processed

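RNA-seq libraries of 3 control and 3 APAP+IBU ovary pools were prepared by the authors with a stranded poly(A) kit. The deposited values are raw counts per Ensembl gene, and the submitters' processing notes name bcl2fastq 2.17.1.14, TopHat2 2.0.14, Bowtie2 2.1.0, HTSeq 0.6.1 and the build mm10. The strand setting of the counting is not given in the sources used here. Of 48709 gene identifiers, 48349 matched a symbol in GENCODE M21.

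Counts were filtered with filterByExpr (20167 genes kept), scaled with the trimmed mean of M values and tested with the quasi-likelihood test of edgeR 4.0.16 under R 4.3.3, with Benjamini-Hochberg adjustment over all tested genes. DESeq2 1.42.0 was an alternative. The script was tested on simulated data. Log2 CPM used a prior count of 1, and SE is the standard error of the difference of group means. Library totals ran from 37811968 to 48954631 counts, which sets the counting error of rare genes. Pools are separate, and p-values measure the spread between them. The main fit did not pair libraries by replicate number.

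Genes were named by a rule: the 6 members, their nearest coding neighbours and overlapping genes, the 3 most abundant genes of each list, and the 10 genes most like the members' mean profile. The members and gene lists were chosen with earlier results of these data known. Promoters came from RefSeq (GRCm38.p6, 6 of 6 matched). Coordinates are 1-based. Alternatives tried were other scalings, count filters, prior counts, a replicate block, a correction for length and GC content (locally weighted regression, span 0.3), leaving out each library and leaving out both replicate 3 libraries.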

Additional observations from a re-analysis of the deposited data

How the results depend on the processing

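The log2 difference of the summed sperm chromatin genes kept its direction under all 11 alternatives run, from -4.90 (without APAP+IBU replicate 1) to -3.74 (without control replicate 1). For the single genes, 77 of 78 recomputed differences moved by less than the spread between replicates and 0 changed sign, and the range was -5.76 to -2.47. Every exposed library lay below every control for each gene, so that leaving out libraries could not change a sign. The replicate block cannot change a difference of means between balanced groups. The kept direction is therefore no separate support. The count of genes called at an adjusted p under 0.05 was 0 by edgeR and became 120 when every gene with at least 1 count was kept, 192 with DESeq2 and 5607 with replicates 1 and 2 only. With a library left out in turn it ran from 0 to 1064, the latter without control replicate 3. At an unadjusted p under 0.05 the count of 1254 became 2346 with every gene kept and 8451 with replicates 1 and 2 only, and ran from 580 to 6294 with a library left out. The testis lists' count of 37 lower genes became 19 with at least 10 counts in every library and 62 with replicates 1 and 2 only, and ran from 32 to 56 with a library left out. The filter at 10 counts in every library removed genes rare in any library, among them testis genes rare only in the exposed group. For the other settings the cause was not tested.

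Replicate numbers are shared between the groups. Across all tested genes, deviations from the group means were hardly correlated between libraries with the same number (r = -0.07, -0.02 and -0.04). Genes are not independent replicates, and 0 of 3 control libraries correlated best with their own number. The fetal liver list did follow the number. Its median log2 CPM relative to gene means was -1.42, -0.34 and 1.70 in controls 1, 2 and 3. In APAP+IBU 1, 2 and 3 it was -1.87, -0.45 and 2.61. Whether the pools were paired cannot be told from these values. With the replicate block the adjusted count was 2, the unadjusted count 681 and the testis count 33, and with the block and the length and GC correction the adjusted count was 26. The block left the members' summed difference at -4.37, as it must with balanced groups. Depth limits Prm3 and Hils1 most, with 2 and 18 counts over the 3 exposed libraries.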
